A study of Homo sapiens with 8 samples.

Results

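The comparison set the RPL27 siRNA against the RPL9 and RPL17 siRNAs within the same cell line, so that a response of equal size under all 3 siRNAs cancels. It used 6 of the 8 libraries of the series, chosen by their siRNA label and not by any measured value: 2 RPL27 siRNA libraries and 4 reference libraries, 1 with RPL9 and 1 with RPL17 siRNA in each line. The lines were HCT116 and HT29, established lines from human colorectal cancers, grown in RPMI medium without any engineered allele named in the labels. Cells were transfected with 15 nM of 1 siRNA using Lipofectamine, and total RNA was taken after 48 h. The 6 groups were thus HCT116 with RPL9, RPL17 or RPL27 siRNA and HT29 with RPL9, RPL17 or RPL27 siRNA, and each of them received an siRNA against a ribosomal protein. The 2 libraries with a negative control siRNA (NC) stayed outside the tests and are given as values.

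Ribosomes are built from a small and a large subunit, each an RNA scaffold holding many ribosomal proteins. RPL9, RPL17 and RPL27 are proteins of the large subunit, and cells short of one of them make fewer large subunits while other ribosomal proteins go unassembled. Dividing cancer cells need a high rate of ribosome production, and their cell cycle genes are known to respond when it drops.

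Each siRNA was used once per line, so no value within a line has a replicate error, and the tests take the 2 lines, and RPL9 and RPL17 siRNA within a line, as replicates. Their p-values measure the spread between lines and between these siRNAs and not between cultures. Each gene was targeted under 1 siRNA label, so loss of the RPL27 message and any other action of that siRNA cannot be told apart. The deposited values were RPKM, a read density scaled to transcript length and library size, for 19124 genes. Depth estimated from low values of 1186 single-exon genes, sought in a fixed window and so rough, was 20.7 to 26.5 M (mega) reads per library, with 24.8 and 24.1 M in the RPL27 libraries. Genes listed at 0 made up 13.1% to 15.7% of a library. Libraries of a line correlated across genes at r between 0.977 and 0.983, and genes are not independent replicates. The HT29 NC library stood apart: its level over the other libraries correlated with transcript length at rho = -0.58 against 0.14 to 0.27 in the other 7. Epithelial markers summed to between 20708 and 42320 RPKM over the 6 libraries, while VIL1 and KRT20 were low in HCT116. The RPL27 library had the lowest epithelial sum in each line, 20708 against 22732 to 23104 in HCT116 and 36059 against 42115 to 42320 in HT29. Fibroblast markers summed to 2.82 to 10.5 RPKM and endothelial markers to 1.09 to 10.9, with DCN, LUM, PECAM1 and CDH5 all under 1. Leukocyte markers summed highest in the RPL27 libraries, to 149 RPKM against 89.1 to 102 in HCT116 and to 183 against 48.2 to 66.2 in HT29. CD68 among them was at 84.4 against 54.9 and 56.9 RPKM in HCT116 and at 77.3 against 32.2 and 38.3 in HT29. ITGAM was higher in HT29, at 15.5 against 5.67 and 7.49, but not in HCT116. PTPRC stayed at or under 0.49, and CD3E was at 0 in all 6 but HT29 with RPL27 siRNA (8.03 RPKM). The part of these markers in the results was not tested.

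The targeted messages followed the labels. RPL27 itself stood at 9280 RPKM with RPL9 siRNA, 4723 with RPL17 siRNA and 2045 with RPL27 siRNA in HCT116. In HT29 the RPL27 levels were 10530, 4754 and 2214, and with NC they were 7649 in HCT116 and 16205 in HT29. The RPL27 siRNA libraries were thus the lowest in both lines, and the RPL17 siRNA libraries lay between them and the RPL9 ones. On the log2(RPKM + 1) scale the difference of RPL27 from the mean of the other siRNAs was -1.69 ± 0.36 (SE), 31.1% of the reference level, with an adjusted p of 0.16 by limma, which misses the threshold. Against RPL9 siRNA alone it was -2.22 (adjusted p = 1.29e-04) and against RPL17 siRNA alone -1.15 (adjusted p = 0.0033), both past it. RPL9 was at 18823 and 17546 RPKM in the RPL27 libraries against 5560 and 5245 under its own siRNA. RPL17 was at 31298 and 28748 against 10004 and 8240 under its own. Ribosomal protein genes have processed pseudogenes, and the sources used here do not say how reads shared with them were assigned.

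The 14217 genes tested averaged 1 RPKM or more over the 6 RPL siRNA libraries. Of them 34 were called, meaning an adjusted p under 0.05 in limma with the cell line as block. Fewer were higher than lower under RPL27 siRNA: 4 genes (0.0281% of those tested) were higher and 30 (0.211%) lower. In all 34 the RPL27 library lay outside both reference libraries in both lines. The test favours such genes, since it takes the spread between references and between lines as error, so this is a description. Across all tested genes the RPL27 library was the highest of the 3 in both lines for 2249 (15.8%) and the lowest for 2435 (17.1%), and the median difference was -0.003. The same counts were 2495 and 2417 genes for RPL9 siRNA and 2341 and 2152 for RPL17 siRNA. The unadjusted p was under 0.05 for 758 genes on the higher and 905 on the lower side. The counts were 0 and 0 without the filter on low values, without limma's trend or with all 8 libraries, 0 and 4 with a pseudocount of 0.1, and 77 and 121 with a level for each siRNA. All 34 calls were lost when any 1 of the 4 reference libraries was left out, at adjusted p values between 0.065 and 0.16 in limma. Each of the 34 kept its direction when any 1 of the 6 libraries was left out. That had to be so, since the RPL27 library lay outside both references on the same side in both lines.

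The line-by-line plot of all tested genes shows these 34 in the upper right and lower left quadrants. Genes not called can lie farther out than many of them, as COL5A1 does at 2.74 in HCT116 and 2.09 in HT29.

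**Figure D1:**
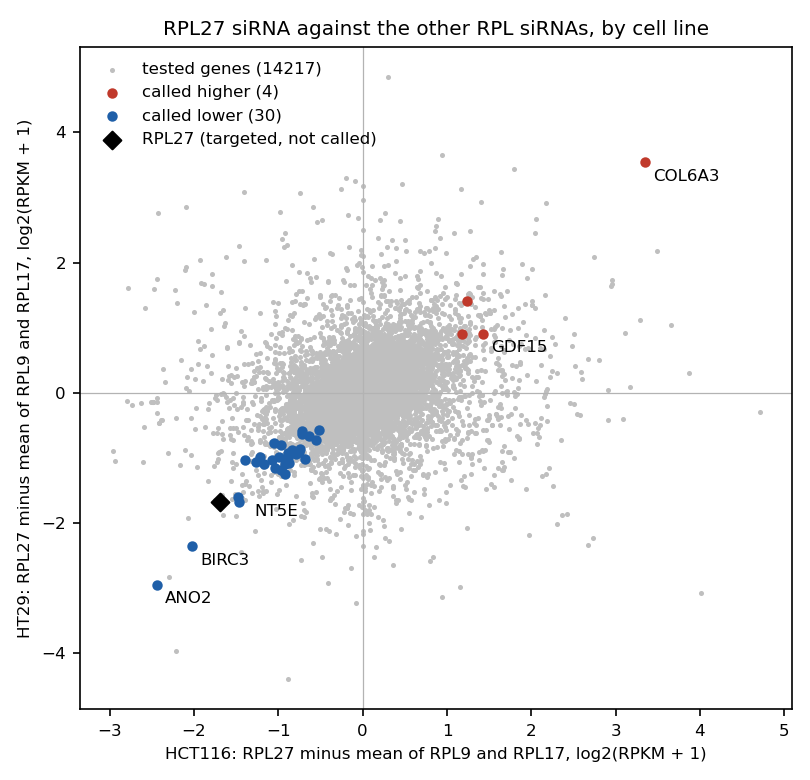
Difference of RPL27 siRNA from the mean of RPL9 and RPL17 siRNA in log2(RPKM + 1), HCT116 on the x axis and HT29 on the y axis, 1 point per tested gene. The 4 genes called higher (red) and 30 called lower (blue) lie close to the diagonal, with COL6A3 farthest up and ANO2 farthest down, and RPL27 (black diamond) at -1.69 and -1.68.

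BIRC3, an inhibitor of apoptosis that is a ubiquitin ligase of the TNF receptor complex and a target of NF-kB, had the clearest difference among signalling genes. It was at 223 RPKM with RPL9 siRNA, 250.5 with RPL17 siRNA and 57.5 with RPL27 siRNA in HCT116. In HT29 it was at 282, 231 and 49.0. The RPL27 libraries lay far under both references and near the NC libraries, which had 42.9 in HCT116 and 32.1 in HT29. The difference was -2.19 ± 0.16 (SE, adjusted p = 0.015), 21.9% of the reference level, and it was -2.22 against RPL9 and -2.16 against RPL17 siRNA, which share the RPL27 libraries. The BIRC3 promoter is shown because NF-kB has well-known sites there. The stretch below is taken from RefSeq (GRCh38.p14, chr11:102317269-102317378, plus strand), runs from 215 to 106 bases before the start, and has matches to the NF-kB consensus in capitals.
BIRC3: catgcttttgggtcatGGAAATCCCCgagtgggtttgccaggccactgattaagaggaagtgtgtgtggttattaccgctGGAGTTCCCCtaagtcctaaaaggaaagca
It holds 2 matches, in a window of 110 bases. In promoters from 250 bases before to 50 after the start, the consensus on either strand was found in 12 of 20 promoters of the NF-kB list (60.0%), in 5.72% of 27305 promoters and in 3 of 21 promoters of the genes called lower (14.3%).

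Of the 24 tested members of the NF-kB list (subunits, inhibitors and target genes), BIRC3 was called lower (0.211% of all genes were) and none higher. The median was -0.29, but -0.14 in HCT116 and -0.32 in HT29, 17 members were below 0, and 10 (41.7%, against 17.1% of all genes) had the RPL27 library lowest in both lines. TNIP1, an inhibitor of NF-kB signalling, was at 578, 500 and 345 RPKM with RPL9, RPL17 and RPL27 siRNA in HCT116 and at 649, 562 and 368 in HT29 (-0.67, adjusted p = 0.11). NFKBIA, which holds NF-kB in the cytoplasm, differed by -0.52 (adjusted p = 0.26), TNFAIP3, a deubiquitinase that ends the signal, by -0.63 (adjusted p = 0.38), and the subunit RELB by -0.59 (adjusted p = 0.38). These were lower in both RPL27 libraries without passing the test, while RELA, the main activating subunit, differed by -0.09. Among the 7 members above 0, TNFAIP2 differed by 0.27, ICAM1 by 0.35 and CXCL2 by 0.58. For CXCL2 the lines disagreed, with 1.86 in HCT116 and -0.70 in HT29. CXCL1, IL8 and IL32 were likewise above 0 in HCT116 and below 0 in HT29. Against RPL9 siRNA alone, BIRC3, NFKB2 and TNIP1 were called lower (0.893% of all genes were), and against RPL17 siRNA alone BIRC3 and TNIP1 (0.675% of all genes were). In the list of death receptors and inhibitors of apoptosis (18 tested), only BIRC3 was called, and the median was -0.18, with -0.21 in HCT116 and -0.06 in HT29.

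The plot of single libraries shows the levels of RPL27 and of 8 called genes with their NC values.

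**Figure D2:**
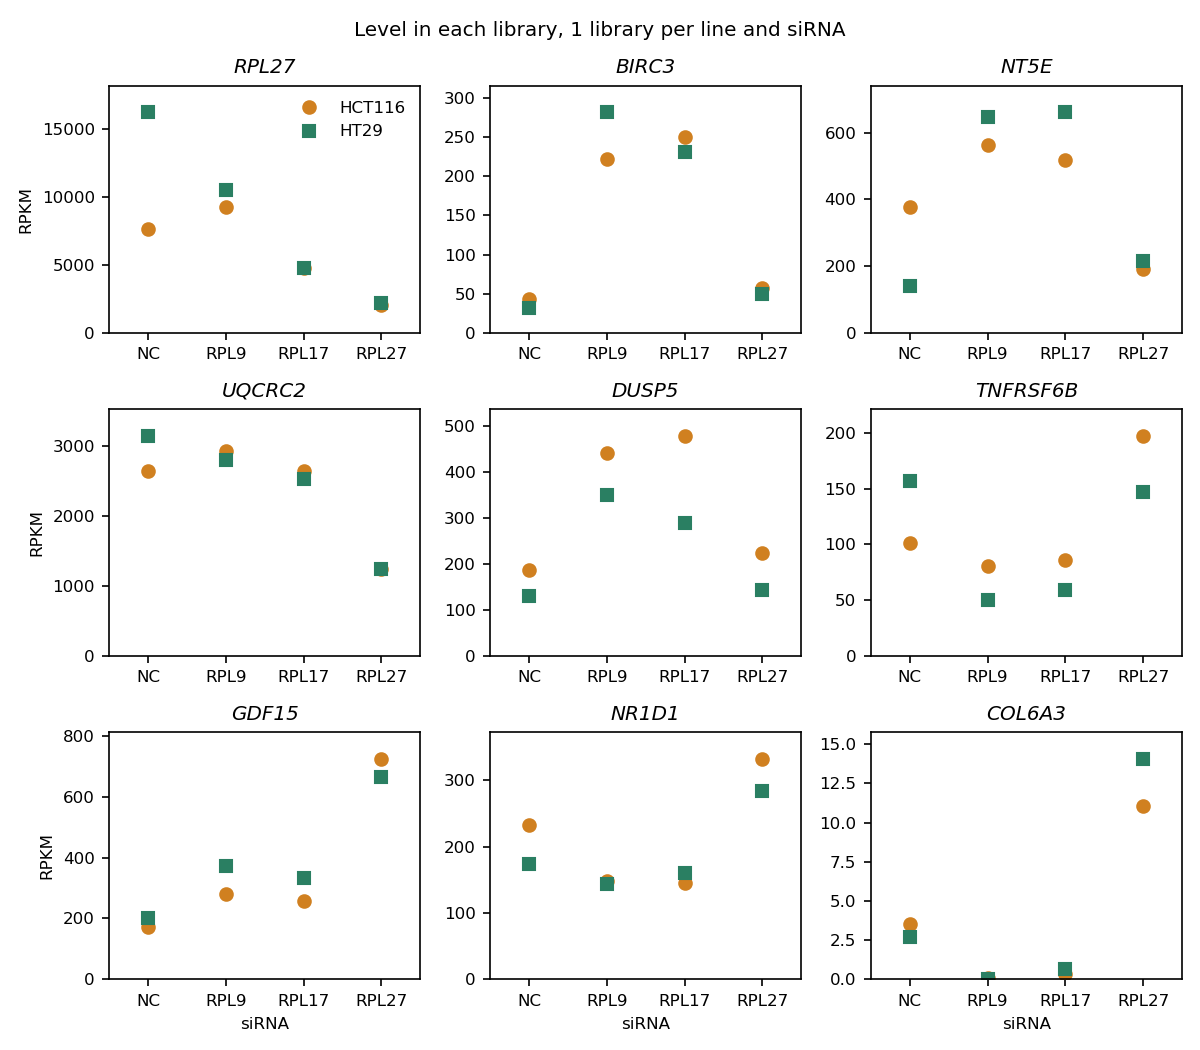
RPKM (y axis, linear from 0, a different range per gene) in each of the 8 libraries by siRNA (x axis), HCT116 as circles and HT29 as squares, 1 library per point. BIRC3, NT5E, UQCRC2 and DUSP5 are lower with RPL27 than with RPL9 and RPL17 siRNA, and TNFRSF6B, GDF15, NR1D1 and COL6A3 higher, with NC near RPL27 for BIRC3 and DUSP5 and away from it for UQCRC2 and GDF15.

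NT5E, the ectoenzyme CD73 that makes adenosine from AMP, was at 563, 517 and 192 RPKM with RPL9, RPL17 and RPL27 siRNA in HCT116. In HT29 NT5E was at 646, 661 and 215, with NC at 378 in HCT116 and 139 in HT29. The RPL27 libraries were far below both references, and the NC library was above RPL27 in HCT116 and below it in HT29. The NT5E difference was -1.54 ± 0.10 (adjusted p = 0.015), 34.4% of the reference. TSPAN12, a tetraspanin that aids Norrin signalling, was at 57.9, 54.3 and 19.6 RPKM in HCT116 and at 50.2, 56.7 and 15.96 in HT29 (-1.58 ± 0.19, adjusted p = 0.045). ANO2, a calcium-activated chloride channel, was at 21.9, 15.1 and 2.54 RPKM in HCT116 and at 7.14, 7.69 and 0.0904 in HT29 (-2.69 ± 0.32, adjusted p = 0.045). It had the largest difference of the 30 and the lowest mean level of them, 9.08 RPKM. Over the processing settings given below, the ANO2 difference ran from -4.05 to -1.46, and with a pseudocount of 5 ANO2 was not called. ITGB1, the beta 1 integrin chain, was at 5102, 5727 and 3698 RPKM in HCT116 and at 5856, 6056 and 3600 in HT29 (-0.64 ± 0.076, adjusted p = 0.045). It was the 1 gene called of 11 integrins tested, whose median was -0.08, where 0.211% of all genes were called lower. ITGB1 was named after its values were seen.

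UQCRC2, a core subunit of respiratory complex III, was at 2937, 2641 and 1238 RPKM with RPL9, RPL17 and RPL27 siRNA in HCT116. In HT29 UQCRC2 was at 2807, 2528 and 1246, and with NC it was at 2640 in HCT116 and 3150 in HT29. The 6 libraries without RPL27 siRNA held between 2528 and 3150 RPKM, and both RPL27 libraries were below all of them. The difference was -1.13 ± 0.083 (adjusted p = 0.015), 45.6% of the reference. COX7C, a subunit of cytochrome c oxidase, was at 1093, 1345 and 661 RPKM in HCT116 and at 1142, 1049.7 and 515 in HT29 (-0.98 ± 0.11, adjusted p = 0.045). ATP5E, the epsilon subunit of ATP synthase, differed by -0.87 ± 0.088 (adjusted p = 0.043) and was named after its values were seen. SAMM50, which inserts barrel proteins into the outer membrane, was at 809, 766 and 395 RPKM in HCT116 and at 727, 615.5 and 339 in HT29 (-0.99 ± 0.10, adjusted p = 0.043). Of 75 respiratory chain subunits, a list chosen after these calls were seen, 3 were called lower, where 0.211% of all genes were, and none higher, with a median of 0.01, and UQCRC1, the partner core subunit, differed by 0.16 (adjusted p = 0.48). Of 21 genes of mitochondrial import only SAMM50 was called, the median was -0.16 and 18 were below 0. Mitochondrial ribosomal proteins (76 tested) had no call and a median of -0.08.

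PKM, the pyruvate kinase that closes glycolysis, was at 11912, 9941 and 5151 RPKM in HCT116 and at 12855, 10738 and 5768 in HT29. NC held 9872 in HCT116 and 11215 in HT29, so the RPL27 libraries were the lowest of all 8 for PKM. The PKM difference was -1.05 ± 0.10 (adjusted p = 0.039), 48.2% of the reference. QARS, the glutaminyl-tRNA synthetase, was at 2617, 2390 and 1326 RPKM in HCT116 and at 2286, 2455 and 1107 in HT29 (-1.01 ± 0.084, adjusted p = 0.027), with NC at 3184 in HCT116 and 3582 in HT29. Both RPL27 libraries were below all others. QARS was the 1 call among 20 aminoacyl-tRNA synthetases, whose median was -0.01, where 0.211% of all genes were called lower. LYPLA1, which removes palmitate from proteins, differed by -1.21 ± 0.11 (adjusted p = 0.039). ERI1, an exonuclease that trims histone messages and ribosomal RNA, was at 368, 410 and 198 RPKM in HCT116 and at 329, 351 and 149 in HT29 (-1.08 ± 0.12, adjusted p = 0.043). DENR, a factor of translation reinitiation and ribosome recycling, differed by -0.85 ± 0.10 (adjusted p = 0.045) and was named after its values were seen. Translation factors (26 tested) had no call and a median of -0.01.

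RPL35 was the only ribosomal protein gene called. It encodes a large subunit protein near the exit of the peptide tunnel, and stood at 5928, 6508 and 4004 RPKM in HCT116 and at 5610, 6445 and 3811 in HT29. NC held 4796 in HCT116 and 10701 in HT29, so the RPL27 libraries were the lowest of all 8. The RPL35 difference was -0.65 ± 0.078 (adjusted p = 0.045), with -0.56 against RPL9 and -0.73 against RPL17 siRNA. The other 43 large subunit genes were not called and the median of the 44, which leave out the 3 targeted genes, was 0.02. The 32 small subunit genes had no call, a median of 0.04 and a range from -0.09 to 0.23. Against RPL17 siRNA alone RPL5, RPL26 and RPL32 were called higher by 0.36, 0.39 and 0.49, where 0.471% of all genes were called higher. For RPL5 the RPL27 library was not the highest in both lines. Of the small subunit genes 2 were called higher against RPL17 siRNA alone. Against RPL9 siRNA alone 1 of them was, where 0.703% of all genes were. Among 38 genes of ribosome biogenesis and RNA polymerase I none was called, the median was -0.15, 31 were below 0, and 21 (55.3%) had the RPL27 library lowest in both lines against 17.1% of all genes. NCL (nucleolin), a nucleolar protein of ribosomal RNA synthesis, was nearest, at 13619, 14476 and 10397 RPKM in HCT116 and 12482, 12275 and 9530.5 in HT29 (-0.41 ± 0.053, adjusted p = 0.052).

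Genes of protein modification and DNA repair were each represented by 1 or 2 members. NEDD8, a ubiquitin-like protein that activates cullin ligases, was at 1416, 1715 and 646 RPKM in HCT116 and at 1324, 1475 and 672 in HT29. The RPL27 libraries were below the NC libraries too, which held 1423 and 2239. The NEDD8 difference was -1.16 ± 0.11 (adjusted p = 0.039), and NEDD8-MDP1, a read-through of NEDD8 into its neighbour that shares its reads, differed by -1.10. Of 24 NEDD8 pathway genes and cullins, NEDD8 was the 1 call, with a median of -0.04. ANAPC5, a subunit of the anaphase-promoting complex, differed by -0.66 and was the 1 call among its 13 subunits (median -0.14). TDG, a DNA glycosylase that removes thymine from mismatches, was at 408, 440 and 229 RPKM in HCT116 and 355, 410 and 190 in HT29 (-0.94 ± 0.11, adjusted p = 0.045), and the NC libraries at 234 and 87.7 were close to or below RPL27. POLB, the polymerase that fills the gap in base excision repair, differed by -0.83 ± 0.095 (adjusted p = 0.043). These were the 2 calls among 18 genes of base excision repair, where 0.211% of all genes were called lower, and the median of that list, chosen after they were seen, was -0.06. The lists of respiratory chain, import, NEDD8, anaphase-promoting complex, integrin, base excision repair and DUSP genes were chosen after the called genes were seen. TOP1, the topoisomerase that relaxes DNA ahead of polymerases, had the smallest difference of the 34, -0.54 ± 0.061 (adjusted p = 0.043). ANAPC5, TDG, POLB and TOP1 were named after their values were seen.

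DUSP5, a phosphatase that switches off nuclear ERK and is induced by it, was at 443, 480 and 223 RPKM in HCT116 and at 351, 290.1 and 142 in HT29. NC held 187 in HCT116 and 131 in HT29, so NC and RPL27 siRNA lay together under the RPL9 and RPL17 libraries. The DUSP5 difference was -1.10 ± 0.12 (adjusted p = 0.043 by limma). It was the 1 call among 21 immediate early genes, which had a median of 0.05, where 0.211% of all genes were called lower. ATF3, a stress-induced transcription factor of that list, was at 163, 109 and 46.4 RPKM in HCT116 and at 179, 110 and 37.1 in HT29. Its RPL27 libraries were the lowest of all 8, but the difference of -1.69 ± 0.27 had an adjusted p of 0.092. The ATF4 and amino acid response list (30 tested), which also holds ATF3, had no call and a median of -0.04. The cystine carrier SLC7A11 from it differed by 0.93 (adjusted p = 0.21).

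Other genes called lower, named after their values were seen, were MYL12A (a myosin regulatory light chain, -0.91), PLEKHB2 (an endosomal protein, -0.91), TPD52L2 (a TPD52 family member, -0.89), AP2B1 (an adaptor of clathrin-coated pits, -0.80) and TMCO1 (a calcium channel of the endoplasmic reticulum, -0.68). To these came AARSD1, an alanyl-tRNA editing protein, at -0.85, and the read-through PTGES3L-AARSD1 at -0.86, which shares its reads and is not a separate observation. Over the 30 lower genes the median difference was -0.96, and the median share of the reference level was 51.3%. The spread between lines enters the error that chose the 34 genes, so the gap between lines in them, at most 0.52 (GDF15), is a description. The limma test of a different response between lines called 0 genes (smallest adjusted p 1.00, 255 with an unadjusted p under 0.05), which does not show that the lines responded alike.

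Set against NC, the 30 genes fell into different positions. The NC library lay nearer to RPL27 than to the reference for 7 genes in HCT116 and 14 in HT29. In both lines this held for 6, among them ANO2, BIRC3, DUSP5, PLEKHB2 and TDG. RPL27 siRNA was below NC in both lines for 20 of the 30, in HCT116 for 27 and in HT29 for 21. The HT29 NC library is the one that stood apart by transcript length, and its part in these positions was not tested.

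**Figure D3:**
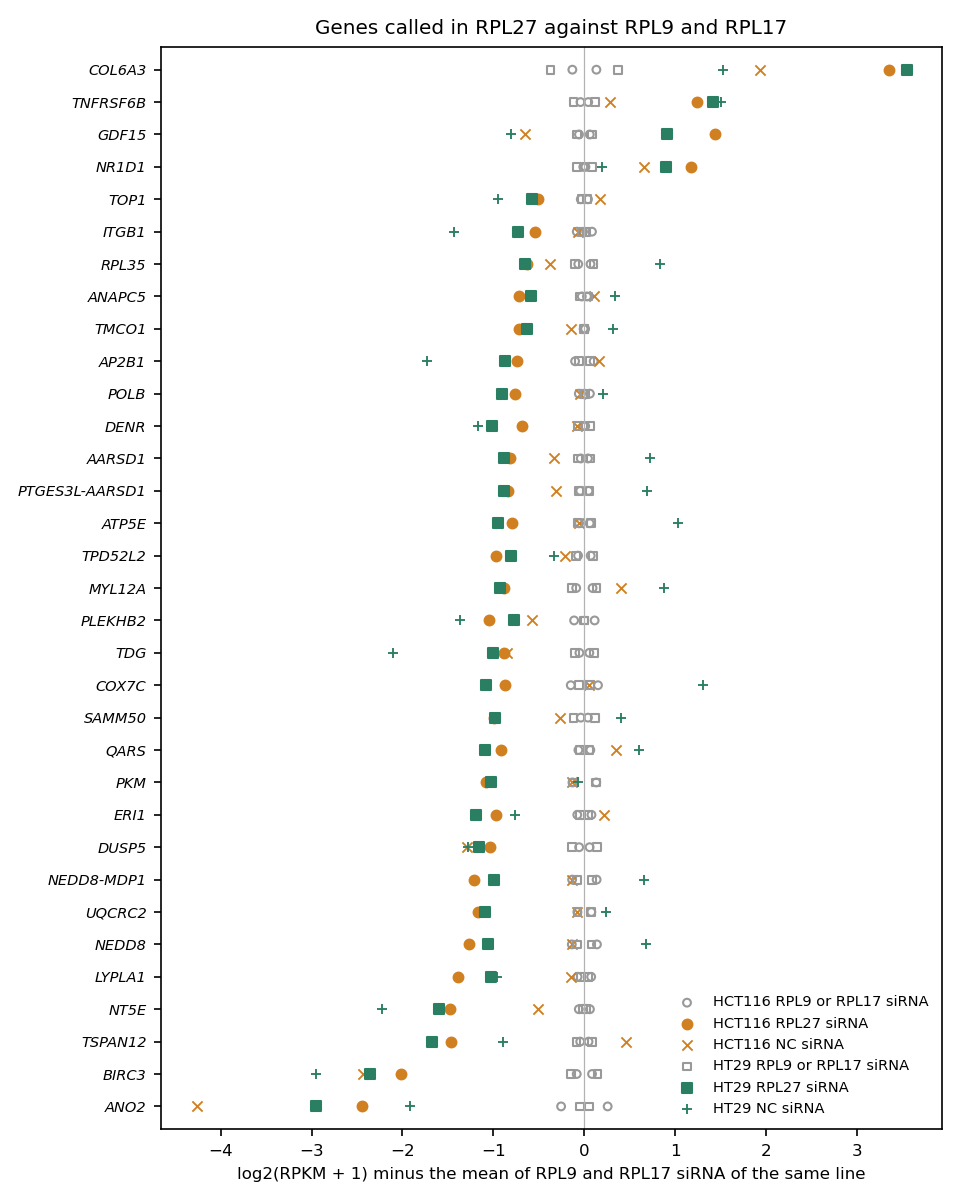
Level of the called genes named in the text (y axis) in log2(RPKM + 1) minus the mean of the RPL9 and RPL17 siRNA libraries of the same line (x axis), 1 marker per library. Filled markers for RPL27 siRNA lie between -2.95 and -0.51 for the lower genes and clear of the open reference markers, which the test that chose these genes favours. The NC marks (x and +) lie by RPL27 for BIRC3 and DUSP5 and by the references for PKM.

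The 4 genes called higher encode secreted or matrix proteins and a nuclear receptor. COL6A3, a chain of collagen VI, was at 0.0770 RPKM with RPL9 siRNA, 0.293 with RPL17 siRNA and 11.1 with RPL27 siRNA in HCT116. In HT29 COL6A3 was listed at 0 with RPL9 siRNA and was at 0.674 and 14.1 with RPL17 and RPL27 siRNA, with NC at 3.501 in HCT116 and 2.71 in HT29. The RPL27 libraries were above the other 6, and the gene passed the filter on low values only through them, so that it had to differ. The difference of 3.45 ± 0.38 (adjusted p = 0.043) was 5.54 with a pseudocount of 0.1, not called, and 1.735 with one of 5. COL6A1 and COL6A2, which encode the partner chains, differed by 0.51 (adjusted p = 0.39) and 0.36 (adjusted p = 0.26). Of 26 collagens and matrix proteins, with a median of -0.08, COL6A3 was the 1 call, where 0.0281% of all genes were called higher.

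TNFRSF6B, a secreted decoy receptor that binds Fas ligand, was at 80.9, 85.9 and 197.5 RPKM in HCT116 and at 50.3, 59.5 and 147 in HT29. NC held 101 in HCT116, below RPL27, and 157 in HT29, close to it. The TNFRSF6B difference was 1.32 ± 0.16 (adjusted p = 0.045), 2.50 times the reference level. GDF15, a stress-induced cytokine, was at 280.1, 258 and 726 RPKM in HCT116 and at 374, 334 and 665 in HT29, with NC at 170.4 and 201. Both RPL27 libraries were above all others, by 1.17 ± 0.14 over the reference (adjusted p = 0.045). NR1D1 (REV-ERB alpha), a repressor of the circadian clock, was at 148, 145 and 332 RPKM in HCT116 and at 143, 160.5 and 283 in HT29, with NC at 232 and 173. It too was highest with RPL27 siRNA in both lines, by 1.04 ± 0.13 (adjusted p = 0.047).

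No other member of the lists that hold these genes was called, where 0.0281% of all genes were called higher and 0.211% lower. NR1D1 was the 1 call of 18 circadian clock genes, with a median of 0.18, and NR1D2, its close relative, differed by 0.14 (adjusted p = 0.72). GDF15 belongs to the list of MDM2, CDKN1A and other arrest and death genes, where it was the 1 call of 24 and the median was 0.02. CDKN1A, the CDK inhibitor p21, was at 1195, 958 and 1133 RPKM in HCT116 and at 834, 761.5 and 864 in HT29, where all 3 siRNAs against ribosomal proteins lay above NC (225 and 198) and RPL27 siRNA within their range in HCT116. MDM2, a ubiquitin ligase, was at 5026, 3774 and 3696 in HCT116 and at 3646, 2622 and 2702 in HT29, with NC at 986 and 168. The MDM2 difference was -0.22 (adjusted p = 0.66). Against RPL9 siRNA alone MDM2 was called lower, at -0.44, where 0.893% of all genes were called lower. Against RPL17 siRNA alone MDM2 was not called, and its RPL27 level was slightly lower in HCT116 and slightly higher in HT29.

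Larger differences without a call were found among genes of low level. LONRF2, a ubiquitin ligase-like protein, was at 2.73, 7.80 and 22.6 RPKM in HCT116 and at 2.19, 3.22 and 19.0 in HT29 (2.25 ± 0.41, adjusted p = 0.14). VGF, a secreted neuropeptide precursor, was at 14.3, 13.3 and 58.3 in HCT116 and at 5.56, 14.4 and 36.3 in HT29 (1.95 ± 0.36, adjusted p = 0.14). SLC4A8, a bicarbonate transporter, was at 3.69, 13.0 and 35.6 and at 1.42, 6.17 and 30.3 (2.55 ± 0.59, adjusted p = 0.20). In these 3 genes both RPL27 libraries were above all 4 references. They were picked among genes with the RPL27 library highest within each line, so this position is no separate result. DNAI1, ZBBX, C6orf57, CD22, COL5A1 and ZNF705G, picked by the same rule, differed by 1.56 to 2.62 at adjusted p values between 0.14 and 0.49. The AMY1A, AMY1B and AMY1C genes are near-identical copies that share reads, and their values of 2.30 to 2.35 are uncertain.

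No member of the cell cycle lists below was called against the mean of the other siRNAs, and most had a difference below 0. ANAPC5, called lower, is not on these lists. G2/M and mitosis genes (37 tested) had a median of -0.39, with -0.42 in HCT116 and -0.33 in HT29, against -0.003 over all tested genes. Of them 36 were below 0, and 31 (83.8%) had the RPL27 library lowest in both lines, against 17.1% of all genes. The smallest adjusted p was 0.14. ANLN, which scaffolds the cytokinetic ring, was at 1472, 1852 and 1055 RPKM in HCT116 and at 1497, 1520 and 1042 in HT29 (-0.59 ± 0.11, adjusted p = 0.14). CCNA2, cyclin A2, was at 384.5, 504 and 277 RPKM in HCT116 and at 335, 449 and 282 in HT29 (-0.56 ± 0.17, adjusted p = 0.30). Both had the order RPL27, RPL9, RPL17 from low to high in either line, and NC was above RPL27 in both lines, with 3497 and 1347 for ANLN and 744 and 533 for CCNA2. CDC25C, a phosphatase that activates CDK1, was the 1 member not below 0, at 0.05. In bulk libraries, fewer cells in a phase and less RNA per cell cannot be told apart.

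The distance to RPL17 siRNA was larger than the distance to RPL9 siRNA. The median of the G2/M list was -0.24 against RPL9 and -0.58 against RPL17 siRNA, 2 comparisons that share the RPL27 libraries. Against RPL9 siRNA none of the 37 was called, where 0.703% of all genes were called higher and 0.893% lower. Against RPL17 siRNA 6 were called lower, where 0.471% of all genes were called higher and 0.675% lower. They were CCNA2, ANLN, AURKB, BUB1, BUB1B and KIF23, genes of cyclin A, the cytokinetic ring, the spindle checkpoint and the midzone, with differences from -0.77 (CCNA2) to -0.58 (KIF23). The difference between RPL9 and RPL17 siRNA was not tested here.

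G1/S and DNA replication genes (44 tested) had a median of -0.30, with -0.31 in HCT116 and -0.32 in HT29. Of them 42 were below 0 and 32 (72.7%, against 17.1% of all genes) had the RPL27 library lowest in both lines. None was called, and the smallest adjusted p was 0.12, for MCM7, a subunit of the replicative helicase. MCM7 was at 1936, 2276 and 1369 RPKM in HCT116 and at 2008, 2205 and 1506 in HT29 (-0.55 ± 0.095). CDC6, which loads that helicase, was at 534, 699 and 416 in HCT116 and at 536, 619 and 337 in HT29 (-0.66 ± 0.14, adjusted p = 0.17), and GINS1, a helicase partner, differed by -0.66 ± 0.14 (adjusted p = 0.18). The list median was -0.14 against RPL9 siRNA (MCM7 called lower) and -0.44 against RPL17 siRNA (MCM3, MCM4, MCM7 and CDC6 called lower). GINS3 and CCNE1 (cyclin E1) were the members not below 0, CCNE1 at 0.32 (adjusted p = 0.48). Among 17 G1 cyclins and CDK inhibitors none was called and the median was -0.19. CDK6, a G1 kinase, was at 271, 295 and 173 RPKM in HCT116 and at 166, 211.5 and 96.9 in HT29 (-0.83 ± 0.15, adjusted p = 0.14).

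**Figure D4:**
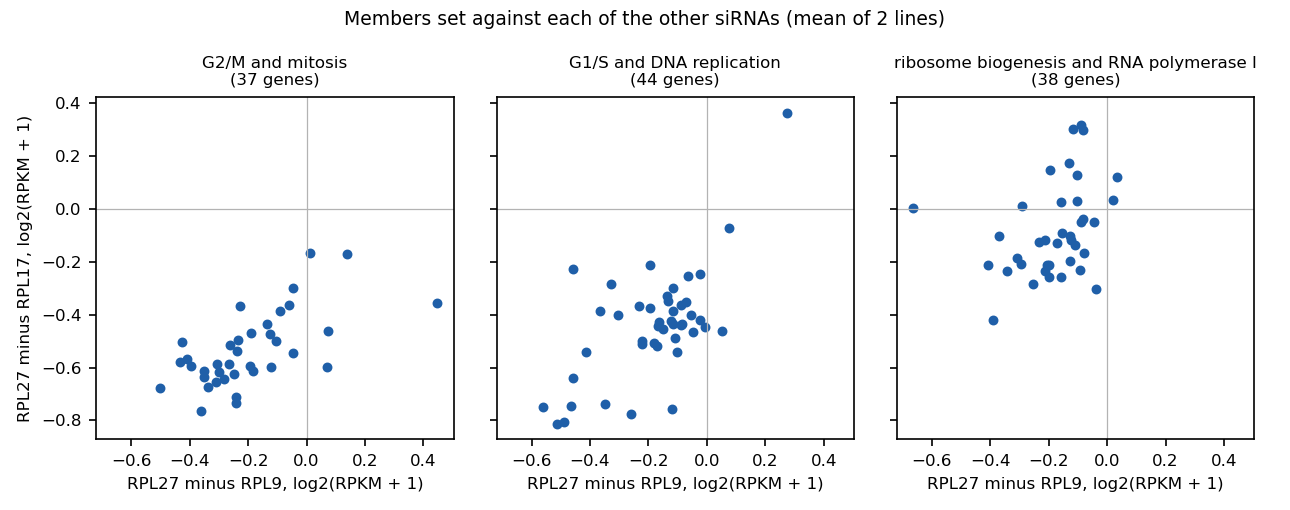
Each member of 3 gene lists, with its difference of RPL27 from RPL9 siRNA on the x axis and from RPL17 siRNA on the y axis, mean of 2 lines in log2(RPKM + 1). Both axes share the RPL27 libraries; most G2/M and G1/S members lie lower on the RPL17 axis (medians -0.58 and -0.44) than on the RPL9 axis (-0.24 and -0.14), and ribosome biogenesis members lie nearer to 0 on both.

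Promoters of G2/M genes are known for a cell cycle homology region, which resembles TTTGAA, read by the DREAM and MuvB complexes near the start, and for CCAAT boxes bound by NF-Y. Windows of 5 of them are shown because most of the list was below 0, and to let the arrangement be read. They cover the 110 bases before the start in RefSeq (GRCh38.p14), with TTTGAA and CCAAT on either strand in capitals, and were picked after the values were seen. They come from chr7:36389752-36389861 (ANLN, plus), chr15:59105036-59105145 (CCNB2, plus), chr16:23678779-23678888 (PLK1, plus), chr15:90994536-90994645 (PRC1, minus) and chr10:128126424-128126533 (MKI67, minus).
ANLN: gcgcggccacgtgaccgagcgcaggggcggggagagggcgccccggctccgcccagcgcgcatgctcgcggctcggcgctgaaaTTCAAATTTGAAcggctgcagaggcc
CCNB2: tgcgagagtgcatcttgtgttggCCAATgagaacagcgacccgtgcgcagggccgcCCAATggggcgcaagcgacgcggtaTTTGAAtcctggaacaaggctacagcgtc
PLK1: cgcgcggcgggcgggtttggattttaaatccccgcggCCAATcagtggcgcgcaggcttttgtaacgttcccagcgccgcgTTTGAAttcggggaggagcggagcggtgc
PRC1: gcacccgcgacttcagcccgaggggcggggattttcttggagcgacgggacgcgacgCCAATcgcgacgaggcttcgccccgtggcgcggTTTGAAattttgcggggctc
MKI67: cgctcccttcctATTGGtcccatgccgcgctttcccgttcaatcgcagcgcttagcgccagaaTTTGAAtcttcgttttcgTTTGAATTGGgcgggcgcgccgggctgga
All 5 windows hold a TTTGAA close to the start, and 4 of them, without ANLN, a CCAAT box. These picked windows do not measure how common TTTGAA is in the list. In the longer promoters counted below, TTTGAA stood in 21 of 30 matched G2/M promoters (70.0%). Those of CCNA2, AURKB and BUB1 held a CCAAT box but neither TTTGAA nor TTTAAA. CCNB2, cyclin B2, differed by -0.45, PLK1, a mitotic kinase, by -0.39, PRC1, which bundles midzone microtubules, by -0.30, and MKI67, the proliferation antigen, by -0.46.

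TTTGAA or TTTAAA on either strand (TTTAAA is its own reverse complement) stood in 26 of 30 matched G2/M promoters (86.7%), against 24.3% of 27305 promoters and 16.2% of 10590 promoters of tested genes. CCAAT stood in 23 of the 30 (76.7%), against 35.7% of all promoters. In G1/S promoters TTTGAA or TTTAAA was found in 4 of 38 (10.5%). CCAAT was found in 21 of the 38 (55.3%). In promoters of the genes called lower, the homology region was matched in either counted form in 4 of 21 (19.05%). The form shown in the windows above stood in 0 of these 21. The NF-Y box was matched in 10 of the 21 (47.6%). No member of the G2/M list was called, so the shares of that list do not describe the called genes. A match is a description of the letters and not a bound site.

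In the other lists few or no members were called. Proteasome subunits (31 tested) had no call and a median of -0.07, with 12 lowest (38.7%, against 17.1% of all genes) and none highest (15.8% of all genes) in both lines. The unfolded protein response (19 tested) had a median of 0.08 with 16 above 0, heat shock chaperones (12 tested) -0.05, interferon-stimulated genes (27 tested) -0.03, cholesterol genes (22 tested) -0.04, hypoxia and glycolysis genes (22 tested) 0.01, Wnt targets (15 tested) 0.05, the MYC network (9 tested) -0.01, and collagen processing enzymes (17 tested) 0.22, all without a call. Complement genes (13 tested) had a median of 0.10 and enterocyte and goblet cell genes (16 tested) -0.16, and neither had a call. Ribosomal protein paralogs (6 tested) had a median of -0.14. Replication-dependent histones (18 tested) had a median of 0.10 over both lines, while the medians within HCT116 and HT29 were -0.06 and -0.11, so the sign depends on how it is taken. Keratins and cornified envelope genes (22 tested) had no call. KRT7, a keratin of simple epithelia, was at 313, 278 and 139 RPKM in HCT116 and at 143, 107 and 51.0 in HT29 (-1.17 ± 0.17, adjusted p = 0.076), with the RPL27 library lowest within each line, while KRT15 differed by 0.94 (adjusted p = 0.080). In the list of TGF-beta, BMP and ID genes (19 tested, median -0.14, no call), the matricellular CYR61 differed by -1.39 (adjusted p = 0.15) and ID1, an inhibitor of differentiation factors, by 0.86 (adjusted p = 0.16). DUSP phosphatases (10 tested) had DUSP5 as the 1 call, where 0.211% of all genes were called lower, and a median of -0.15.

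**Figure D5:**
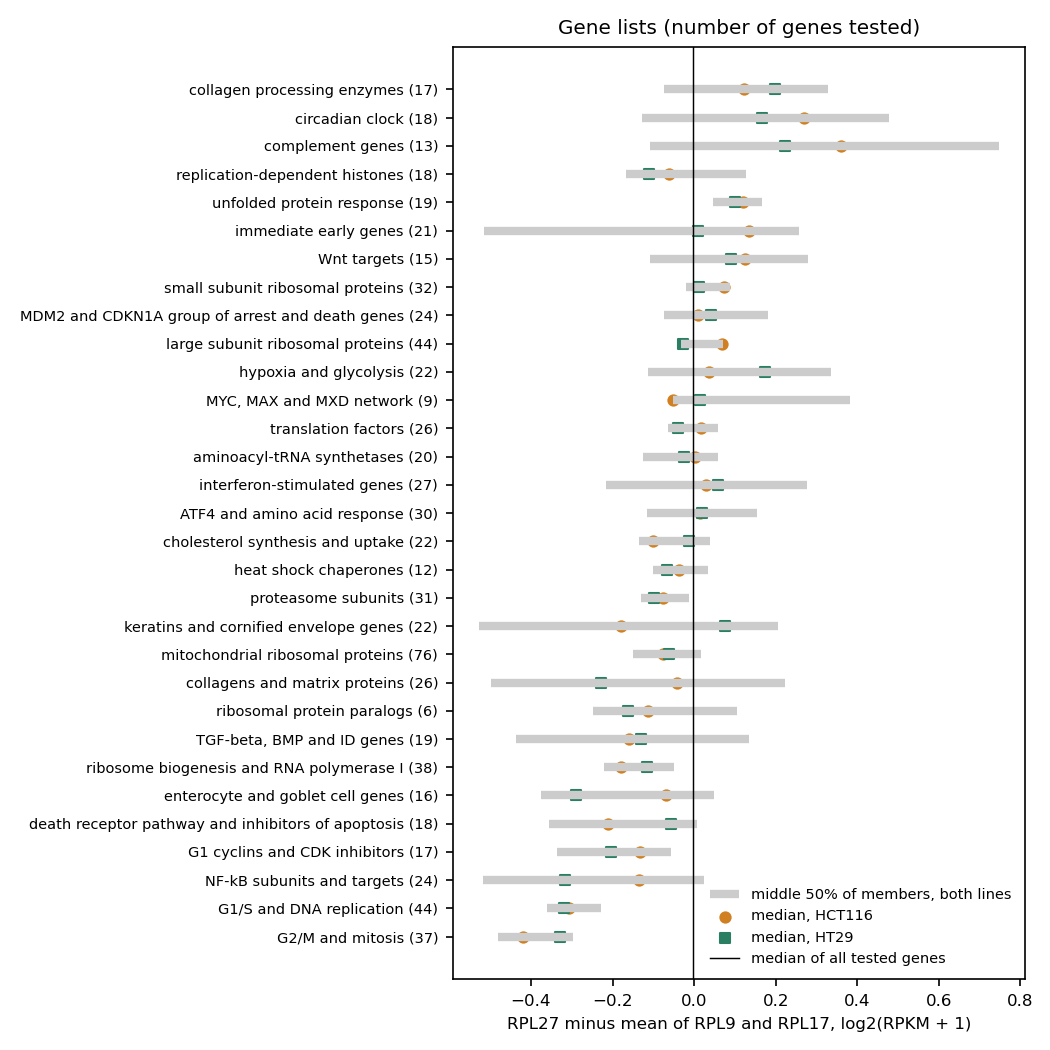
Difference of RPL27 siRNA from the mean of RPL9 and RPL17 siRNA in log2(RPKM + 1) (x axis) for each gene list (y axis, number of genes tested), with the median in HCT116 (circle) and HT29 (square) and the middle 50% of members averaged over both lines (grey bar). The G2/M and G1/S bars lie wholly below 0, at medians of -0.39 and -0.30, while ribosomal protein bars lie at 0.02 and 0.04.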

How the data were processed

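Total RNA of 8 libraries was sequenced after TruSeq RNA library preparation, per the labels' protocols. CASAVA 1.8.2, TopHat2 2.0.9 and hg19 are named in the submitters' processing notes. The authors deposited RPKM, 1 value per gene and library. The rule of read assignment is not given in the sources used, so levels are not compared between genes. No count test was run, and no value column belonged to another series (0).

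The scale used was log2(RPKM + 1). Genes averaging 1 RPKM or more over the 6 RPL siRNA libraries were tested with limma 3.58.1 (trend; statmod 1.5.0 for robust variances) in R 4.3.3, with terms for RPL27 siRNA and cell line, 3 residual degrees of freedom and two-sided p-values adjusted by the Benjamini-Hochberg method. Single siRNA contrasts came from a fit with a level per siRNA (2 residual degrees of freedom). The pseudocount understates changes of low genes. Scripts were tested on simulated data.

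Named genes were the 3 targets, up to 15 each way among those called with a mean of at least 5 RPKM, filled where fewer passed by the largest difference in the line where it was smaller, and 2 to 4 per list. The 15 each way, called or filled, had to have the RPL27 library outside both references on the same side in both lines. Not all are given in the text, and a called gene and a marker are counted but not reported here. COL6A3, called at a mean below 5 RPKM, was named as its list's call. Other genes are named as list members, after their values were seen. The members and lists were chosen with earlier results of these data known. Symbols were matched to RefSeq promoters (GRCh38.p14).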

Additional observations from a re-analysis of the deposited data

How the results depend on the processing

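The counts of 4 higher and 30 lower genes stayed within 1.5 times with a filter at a mean of 5 RPKM, a pseudocount of 5, quantile normalization, median-centring, robust variances, removal of the length trend and, chosen after seeing the data, without the second symbol of each read-through pair (3 and 25). They were 0 and 4 with a pseudocount of 0.1, and 0 and 0 without a filter on low values (1819 genes with an unadjusted p under 0.05 in limma), without the trend (1454), and with all 8 libraries (606). With a level for each siRNA they were 77 and 121. Leaving out any 1 library gave 0 to 0 in both directions (688 to 1691 unadjusted). Without the replicate block, which here is the cell line since replicate numbers in the labels pair nothing, they were 0 and 0 (795 unadjusted). The 34 genes kept their direction in each setting in which they were tested. When a library was left out or the pseudocount changed, that had to be so. Their RPL27 library lay outside both references on the same side in both lines. Calls against RPL9 siRNA went from 227 to 423 at a mean of at least 5 RPKM. Against RPL17 siRNA they went from 163 to 374 there and to 275 with quantile normalization. Of the list medians under these settings, 614 stayed within the spread and 127 moved beyond it. The NF-kB median was -0.14 without the HT29 library with RPL27 siRNA, and the death receptor median -0.056 without the HCT116 one. IFI27, an interferon-stimulated gene, went from 0.83 to -0.040 without the HCT116 library with RPL27 siRNA and to 1.71 without the HT29 one. Apart from the changes that fewer libraries or genes bring by construction, the cause was not tested. Read counts were not analysed, so counting error is unknown.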

Other observations

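The gene neighbours of RPL27 in RefSeq order (GRCh38.p14) were looked up after AARSD1 had been called. AARSD1 lies 3 genes away on one side, and PTGES3L, between it and RPL27, was at 16.3, 16.4 and 4.40 RPKM with RPL9, RPL17 and RPL27 siRNA in HCT116 and at 20.6, 11.6 and 7.86 in HT29 (-1.29, adjusted p = 0.25). RUNDC1, the nearest on that side, differed by -0.14 (adjusted p = 0.87). On the other side IFI35 differed by -0.43 (adjusted p = 0.45), VAT1 by -0.29 (adjusted p = 0.54) and RND2 by 0.63 (adjusted p = 0.58). Of these 6 neighbours AARSD1 was the 1 called.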
